A study of Papio hamadryas with 14 samples.

Results

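The genes described here code for the enzymes of glycolysis, gluconeogenesis, pyruvate entry and the citrate cycle in the kidney of a baboon, Papio hamadryas, studied as whole organ RNA. The rule named 46 genes by pathway; it uses no measured value, but the list was drawn up with earlier results of these data known. Of these, 42 have a probe set that the platform annotation assigns to 1 gene, out of 9580 such genes in all. HK2, G6PC1, PDK1 and FH had no such probe set and were not analysed here. Where a gene had several probe sets, the one with the highest mean log2(signal + 16) over the fetal arrays was taken. Of the 42 genes, 34 passed a filter on low values, set at the median probe set (7.60 on the log2 scale, a signal of 178), and were tested; 5278 genes of the series passed the same filter. The nearest members to that limit were IDH3A (7.76) and ACO1 (7.73) above it and PC (7.55) and PFKP (7.44) below it.

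The kidneys came from fetuses at 60, 90, 125 and 160 days of gestation, written 60dG to 160dG, with 2 arrays at 60dG and 3 at each later stage, and from 3 adults aged 6, 12 and 7 years, here adult replicates 1, 2 and 3. No treatment or genotype is given for any group, and the labels call the fetal samples biological replicates without naming litters. The arrays were human Affymetrix designs, of 1 type for all fetal samples and of another for the adults. The measurement is the signal intensity of a probe set on a linear scale. Baboon transcripts that differ from the human probes can give a lower signal, so levels of different genes are not compared.

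Glycolysis splits glucose into pyruvate in the cytosol, and most of its steps run in both directions. Hexokinase, phosphofructokinase and pyruvate kinase catalyse the steps that do not, and gluconeogenesis passes around them with its own enzymes: pyruvate carboxylase, phosphoenolpyruvate carboxykinase, fructose-1,6-bisphosphatase and glucose-6-phosphatase. In the adult kidney the gluconeogenic enzymes are a property of the proximal tubule, which burns fatty acids and organic acids in a citrate cycle rather than glucose.

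Median signals ran from 172.9 to 194.6 in the fetal samples and from 210.2 to 214.4 in the adults. Some arrays stood apart in ways their stage does not describe. The summed signal of 3 adrenal markers (STAR, CYP17A1 and CYP11B1) was 6697 in 60dG replicate 2, against 104 to 308 on the other fetal arrays. That of 4 skeletal muscle markers (ACTA1, CKM, MYH2 and TNNT3) was 7617 in adult replicate 3, against 342 and 386 in the other two adults. RNA quality, read from GAPDH control probe sets as 3' over 5' signal, gave a ratio of 2.46 and 3.43 for 90dG replicates 2 and 3 and at most 1.99 on the other fetal arrays. Their part in the results was not tested. Results without these arrays are given for many of the called members, but not for PFKP or for genes outside the list.

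All 3 tested enzymes of the committed gluconeogenic steps rose between 60dG and 160dG, each by close to 4-fold. PCK1, the cytosolic phosphoenolpyruvate carboxykinase (probe set 208383_s_at), had signals of 127 and 108 at 60dG, of 392, 587 and 451 at 90dG, of 251, 236 and 218 at 125dG, and of 564, 388 and 497 at 160dG. Its 60dG arrays lay below every later array, and the 125dG arrays lay between the 60dG arrays and all those of the stages on either side. PCK2, the mitochondrial form of the same enzyme (202847_at), had signals of 146 and 156 at 60dG, 397, 498 and 473 at 90dG, 420, 541 and 606 at 125dG, and 755, 480 and 834 at 160dG. FBP1, fructose-1,6-bisphosphatase (209696_at), had signals of 231 and 348 at 60dG, 1102, 1038 and 880 at 90dG, 899, 1019 and 740 at 125dG, and 1416, 627 and 1438 at 160dG. For PCK2 and FBP1 too, neither 60dG array reached any later one, while the 3 later stages overlapped.

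On the log2(signal + 16) scale, the difference between 160dG and 60dG was 1.89 ± 0.22 (SE) for PCK1, with a limma adjusted p of 8.51e-05. It was 2.04 ± 0.24 (SE) for PCK2 (limma, adjusted p = 8.42e-05) and 1.88 ± 0.31 (SE) for FBP1 (limma, adjusted p = 0.00117). All 3 calls held under each of the alternatives in which the gene was fitted, with adjusted p from 5.01e-05 to 0.00241 for PCK1, from 4.06e-05 to 0.00231 for PCK2 and from 5.29e-05 to 0.0319 for FBP1. Over the tested members, 7 of 34 (20.6%) rose in this comparison and none fell, where 11.6% of all tested genes were called, 6.92% higher and 4.72% lower. The groups did not overlap for 19 of the 34 members (55.9%), and for 42.8% of all tested genes.

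KHK, the ketohexokinase that admits fructose to the pathway (211028_s_at), also rose. Its signals were 167 and 190 at 60dG, 339, 480 and 393 at 90dG, 570, 711 and 486 at 125dG, and 876, 324 and 989 at 160dG. Replicate 2 at 160dG lay below every 125dG array, and the other two 160dG arrays lay above all of them. The difference between 160dG and 60dG was 1.79 ± 0.36 (SE; limma, adjusted p = 0.00482). Without 60dG replicate 1, which leaves 1 array at that stage, the difference was 1.71 and the call was lost (limma, adjusted p = 0.0576).

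**Figure D1:**
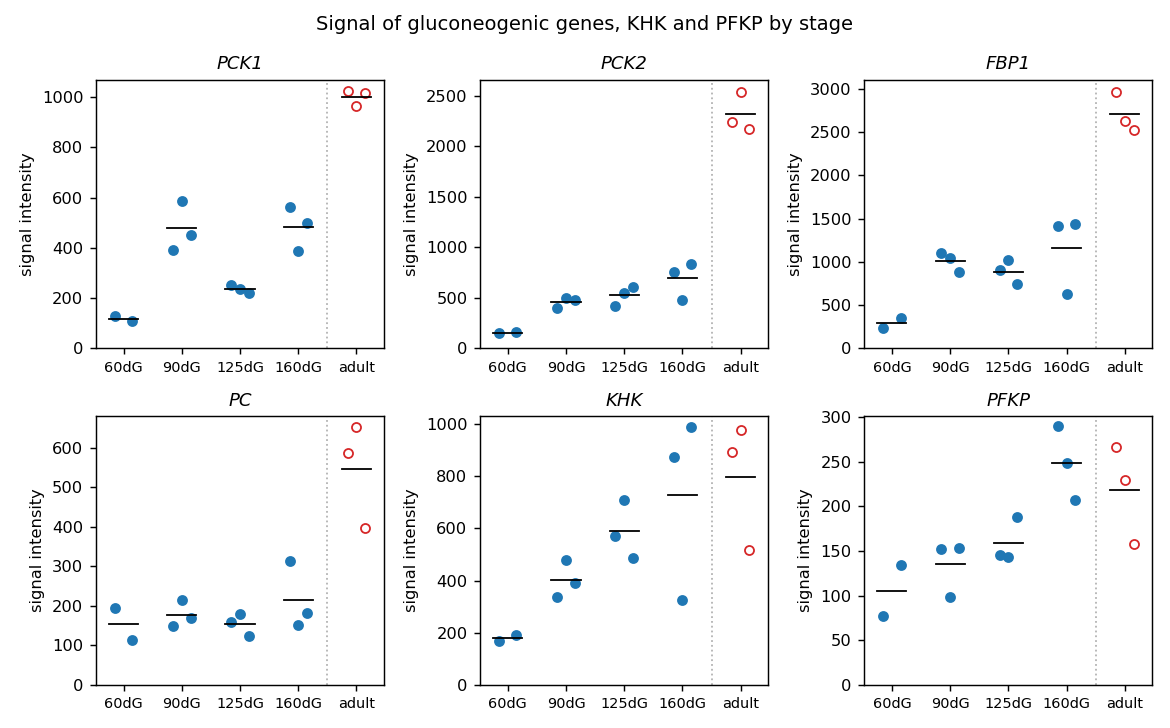
Signal intensity (vertical axes, linear scale from 0) of PCK1, PCK2, FBP1, PC, KHK and PFKP on each array by stage; filled points are fetal arrays, open points adult arrays of another array type, and the bars are group means. For PCK1, PCK2, FBP1 and KHK both 60dG arrays lie below every later array, while PC and PFKP, which are dim, overlap between 60dG and 90dG.

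The proximal tubule markers moved with these genes. Of 12 listed markers, 11 have a probe set and 9 were tested; 8 of the 9 rose between 60dG and 160dG and none fell. Their summed signal ran from 2736 to 3125 at 60dG, 7563 to 10177 at 90dG, 10084 to 11791 at 125dG and 8783 to 19219 at 160dG. At 160dG the sum was 13267, 8783 and 19219 in replicates 1, 2 and 3, and replicate 2 also had the lowest signal of PCK1, PCK2, FBP1 and KHK. Bright markers weigh most in this sum, and GATM gave 4323, 1331 and 4849 in replicates 1, 2 and 3. Replicate 1 was lowest for LRP2, SLC22A2, SLC22A6 and SLC13A3, and replicate 2 for the other markers with a probe set. The median log2 difference of the 9 tested markers from the 60dG mean was closer, at 1.43, 1.28 and 1.97. Cell cycle markers moved the other way, with 8 of 8 tested markers lower at 160dG and sums of 6509 to 6900 at 60dG and 1155 to 1953 at 160dG. In whole kidney, more cells of a type and more RNA per cell cannot be told apart, and the part of these markers in the rise was not tested.

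Glycolytic genes showed no such change. None of the 13 tested members, which span the committed steps, the reversible steps and lactate dehydrogenase, was called between 60dG and 160dG, and 0 had an unadjusted p under 0.05 in limma. Their differences ran from -0.29 to 0.18 on the log2 scale, with a median of -0.13, where the median of all tested genes was -0.01. The 95% intervals of these 13 differences reached at most from -1.21 to 0.73, while the lowest bound among PCK1, PCK2 and FBP1 was 1.22. For these 13 genes no interval reached that of a committed gluconeogenic gene. That does not extend to every glycolytic gene: ENO3, a muscle enolase outside the list, rose by 0.99 with an interval from 0.43 to 1.55, and PFKP, below the filter, differed by 1.16 when no filter was set. Over the trend and the comparison of 160dG with 60dG, 0 of 568 values of these genes under the alternatives were called in limma.

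**Figure D2:**
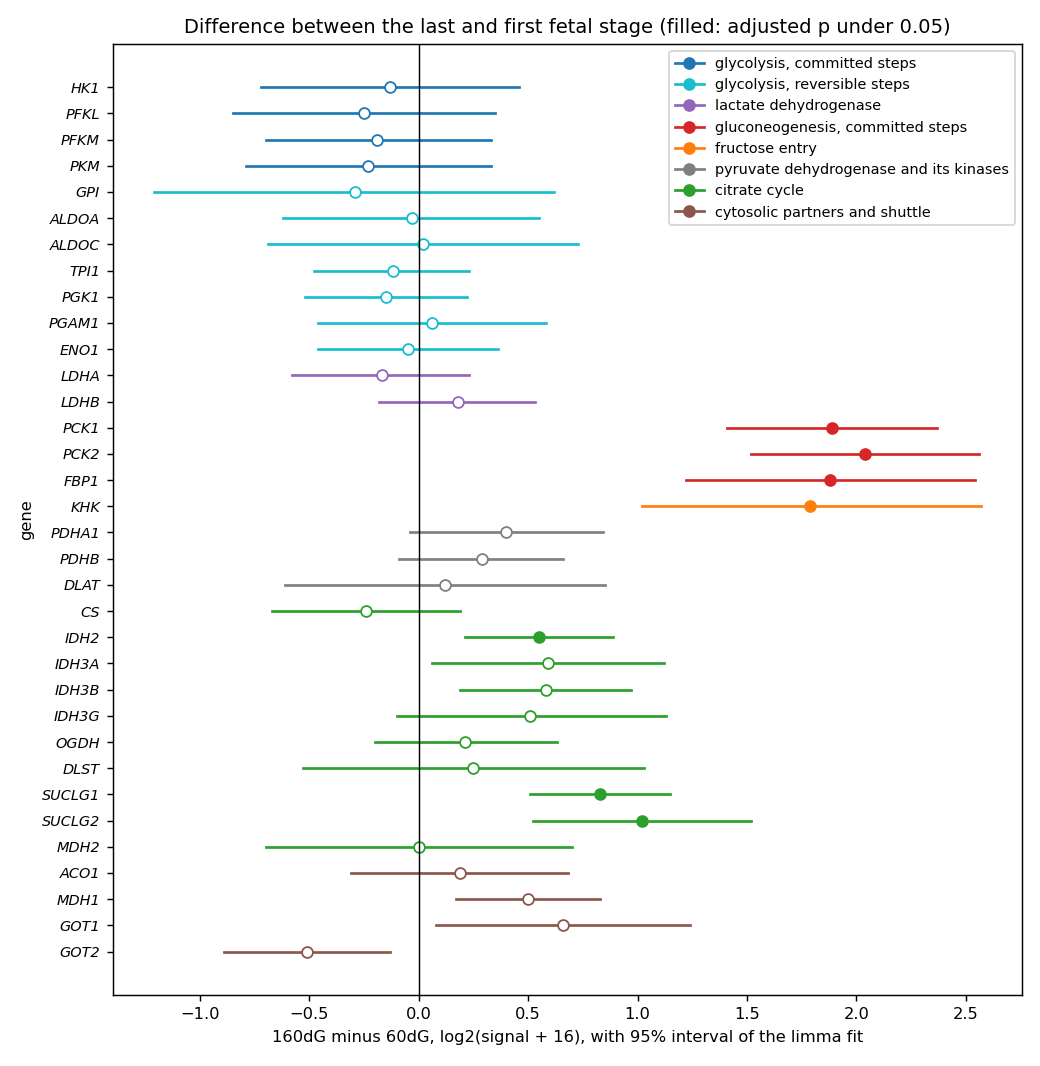
Difference in log2(signal + 16) between 160dG and 60dG (horizontal axis) for each of the 34 tested members, coloured by role, with the 95% interval of the limma fit; filled points have an adjusted p under 0.05. The filled points are PCK1, PCK2, FBP1, KHK, IDH2, SUCLG1 and SUCLG2, all to the right of 0, while the 13 glycolytic genes at the top lie near 0.

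Among the committed glycolytic enzymes, HK1, the hexokinase, had signals of 459 and 462 at 60dG and of 382, 598 and 323 at 160dG, with 572, 567 and 730 at 90dG and 526, 542 and 309 at 125dG. PFKM, a phosphofructokinase subunit, gave 1143 and 763 at 60dG, 1349, 1076 and 1170 at 90dG, 798, 1022 and 844 at 125dG, and 951, 976 and 588 at 160dG. For both genes the 60dG values lay within the range of the later arrays. PFKL, the liver-type subunit, had signals of 241 and 278 at 60dG, 154, 214 and 175 at 90dG, 334, 176 and 350 at 125dG, and 201, 208 and 237 at 160dG. PKM, the pyruvate kinase of most tissues, gave 715 and 1012 at 60dG, 855, 1054 and 1208 at 90dG, 625, 788 and 519 at 125dG, and 819, 900 and 514 at 160dG. PFKL at 160dG lay just below both 60dG arrays, and PKM overlapped. Differences between 160dG and 60dG were -0.13 ± 0.28 (SE) for HK1, -0.19 ± 0.24 for PFKM, -0.25 ± 0.28 for PFKL and -0.23 ± 0.26 for PKM (limma, adjusted p from 0.651 to 0.832).

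Of the reversible steps, none was called either. GPI, the isomerase of hexose phosphates, had the widest error of the glycolytic genes, a difference of -0.29 ± 0.43 (SE), with a mean signal of 2012 ± 288 (SD, n = 2) at 60dG and 1725 ± 743 (SD, n = 3) at 160dG. ALDOA, the aldolase of glycolysis, had 2327 ± 328 (SD, n = 2) and 2274 ± 299 (SD, n = 3). The other tested genes of this group, ALDOC, TPI1, PGK1, PGAM1 and ENO1, differed by -0.15 to 0.06 on the log2 scale. Of the lactate dehydrogenase subunits, LDHA had a mean of 886 ± 103 (SD, n = 2) at 60dG and 784 ± 89.1 (SD, n = 3) at 160dG. LDHB had 3856 ± 59.8 (SD, n = 2) and 4380 ± 449 (SD, n = 3), and with quantile normalization it was called over the 4 stages. A 2nd PGK1 probe set above the filter differed by -0.49 without overlap, against -0.15 for the one used.

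**Figure D3:**
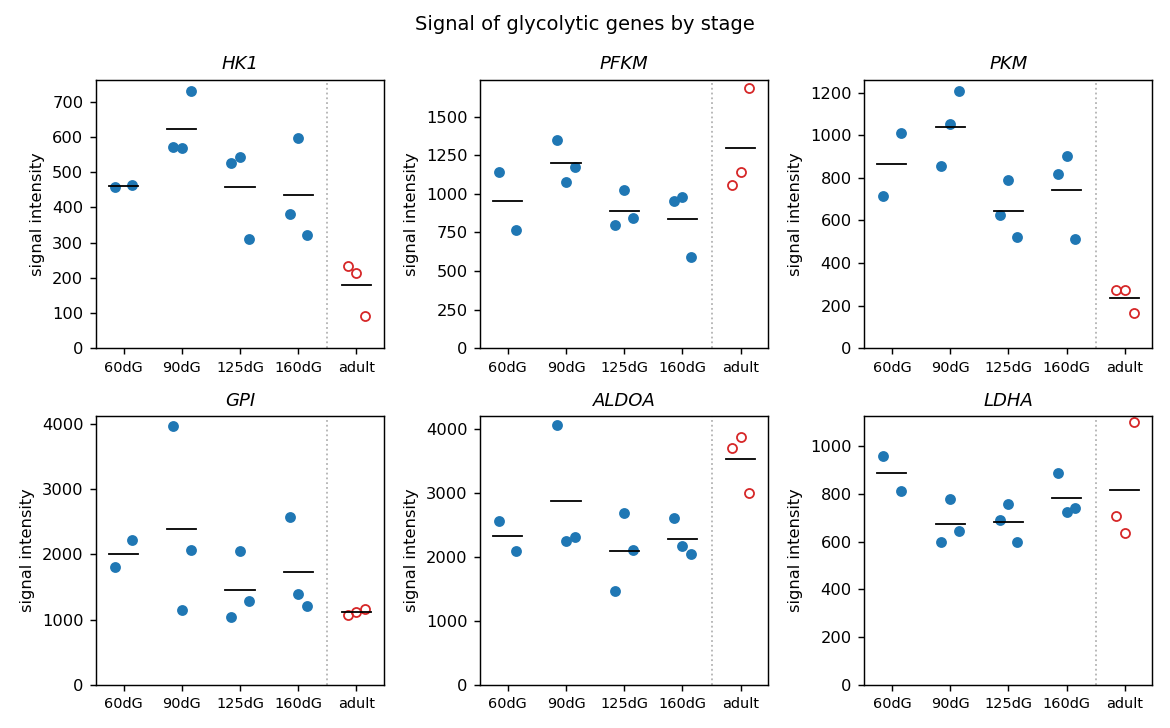
Signal intensity (linear scale from 0) of the glycolytic genes HK1, PFKM, PKM, GPI, ALDOA and LDHA on each array by stage, with group means as bars; open points are adult arrays of another array type. The 60dG and 160dG arrays overlap for each of these genes. The adult arrays of HK1, PKM and GPI lie below all 160dG arrays, and those of PFKM and ALDOA lie above them.

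PFKP, the platelet-type phosphofructokinase subunit, stood apart from the other committed glycolytic genes but was below the filter. Its signals were 76.8 and 134 at 60dG, 153, 98.8 and 153 at 90dG, 146, 144 and 188 at 125dG, and 290, 249 and 207 at 160dG. All 160dG arrays exceeded every earlier one. When no filter was set, it differed by 1.16 ± 0.31 (SE) between 160dG and 60dG (limma, adjusted p = 0.042) and followed the trend (limma, adjusted p = 0.0317). PKLR, the pyruvate kinase of liver, red cells and proximal tubule, was dimmer still, with means of 15.1 ± 5.59 (SD, n = 2) at 60dG and 106 ± 76.8 (SD, n = 3) at 160dG, and was not called without a filter (limma, adjusted p = 0.117). Its 3 probe sets gave differences of 1.75, 0.41 and -0.23.

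Between gluconeogenic and glycolytic enzymes of opposite direction, the ratio within an array shifted. Relative to the 60dG mean, the log2 ratio of FBP1 to PFKL was -0.18 to 0.18 at 60dG, 2.07 to 2.59 at 90dG, 0.92 to 2.30 at 125dG and 1.40 to 2.59 at 160dG. The ratio of FBP1 to PFKM was -0.56 to 0.56 at 60dG and 1.04 to 2.93 at 160dG. That of PCK2 to PKM was -0.20 to 0.20 at 60dG and 1.49 to 3.06 at 160dG. In each of these pairs no 60dG array reached a later fetal array. These ratios were chosen after their values were seen and are given without a test.

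**Figure D4:**
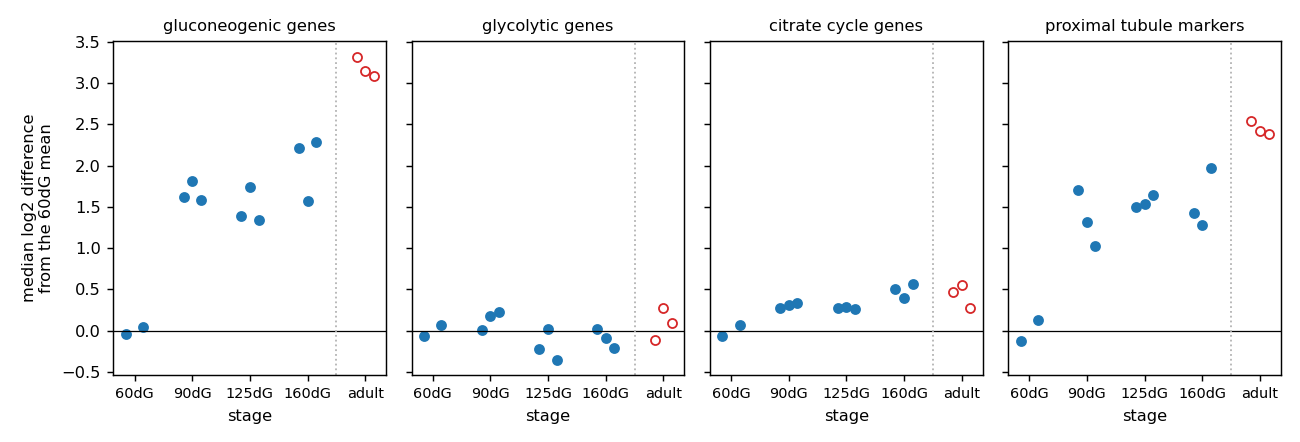
Median log2 difference from the 60dG mean (vertical axis) on each array, for the tested gluconeogenic genes, glycolytic genes, citrate cycle genes and proximal tubule markers; open points are adult arrays of another array type. At 160dG the gluconeogenic arrays lie from 1.57 to 2.28 and the proximal tubule arrays from 1.28 to 1.97, while the glycolytic arrays lie from -0.21 to 0.02 and the citrate cycle arrays from 0.39 to 0.56.

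The pyruvate dehydrogenase complex turns pyruvate into acetyl-CoA, and its kinases switch it off. None of its 3 tested subunits was called between 60dG and 160dG in limma, and 0 of them had an unadjusted p under 0.05. PDHA1, the catalytic alpha subunit, gave 786 and 785 at 60dG and 1033, 1041 and 1057 at 160dG, a difference of 0.40 ± 0.20 (SE; limma, adjusted p = 0.241). PDHB, its beta subunit, differed by 0.29 ± 0.17 and DLAT, the acetyltransferase, by 0.12 ± 0.34. For PDHA1 and PDHB the 2 stages did not overlap, yet the difference did not pass. The kinases PDK2 and PDK4 were below the filter, with mean signals of 126 and 71.8 at 60dG and 131 and 89.9 at 160dG.

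In the citrate cycle, 3 of 10 tested members rose between 60dG and 160dG and none fell, where 11.6% of all tested genes were called, 6.92% higher. The median difference was 0.53, and 1 of the 3, IDH2, kept its call under 12 of 22 alternatives. SUCLG1, the alpha subunit of succinyl-CoA ligase, gave 1422 and 1600 at 60dG, 2198, 2352 and 2037 at 90dG, 2229, 2298 and 2691 at 125dG, and 2756, 2521 and 2805 at 160dG. SUCLG2, the beta subunit of the GTP-forming ligase, gave 750 and 576 at 60dG, 818, 1005 and 932 at 90dG, 996, 1148 and 808 at 125dG, and 1125, 1169 and 1859 at 160dG. Both subunits of this enzyme thus started lowest at 60dG, with no 60dG array as high as a later one. The difference was 0.83 ± 0.15 (SE) for SUCLG1 (limma, adjusted p = 0.00241) and 1.02 ± 0.23 (SE) for SUCLG2 (limma, adjusted p = 0.0109). The 3 probe sets of SUCLG2 differed by 1.02, 1.28 and 1.41. Without 60dG replicate 2, which leaves 1 array at that stage, SUCLG2 differed by 0.83 and its call was lost (limma, adjusted p = 0.122).

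IDH2, the mitochondrial NADP-dependent isocitrate dehydrogenase, rose by 0.55 ± 0.16 (SE; limma, adjusted p = 0.0389). Its signals were 807 and 961 at 60dG, 1358, 1245 and 1136 at 90dG, 1109, 1196 and 1051 at 125dG, and 1282, 1302 and 1298 at 160dG. The call was narrow: adjusted p reached 0.312 under the alternatives, and it failed on leaving out 60dG replicate 1 (0.312) or 2 (limma, adjusted p = 0.0719), each 160dG replicate (from 0.0805 to 0.0854), 90dG replicate 2 (0.0535), and 125dG replicate 1 (0.0536) or 2 (0.0524). It was also lost with the replicate number as a block (limma, adjusted p = 0.0516) and with eBayes run without a trend (0.0593).

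The NAD-dependent isocitrate dehydrogenase, which sets the pace of the cycle, did not pass in this comparison in any subunit. IDH3B differed by 0.58 ± 0.18 (SE; limma, adjusted p = 0.0543) and passed under 4 of 22 alternatives (adjusted p from 0.0327 to 0.046), IDH3A by 0.59 ± 0.25 and IDH3G by 0.51 ± 0.29. IDH3B had signals of 457 and 535 at 60dG, 587, 591 and 700 at 90dG, 583, 543 and 675 at 125dG, and 672, 816 and 756 at 160dG. IDH3A had 173 and 198 at 60dG, 152, 159 and 110 at 90dG, 215.2, 212.3 and 205.3 at 125dG, and 357, 234 and 281 at 160dG. On the probe sets used, all 3 subunits were higher at 160dG than at 60dG without overlap. Of all tested genes, 42.8% differed without overlap in either direction. IDH3A dipped at 90dG below every other fetal array. Another IDH3A probe set, below the filter, differed by 0.27 with overlap, and by 0.08 between 90dG and 60dG. Another IDH3G probe set, also below the filter, differed by -0.90 without overlap. The other IDH3B probe sets differed by 0.50 and 0.77. For CS, the citrate synthase that opens the cycle, the difference was -0.24 ± 0.20, with an interval from -0.67 to 0.19. The 160dG arrays of CS lay below both 60dG arrays. OGDH, DLST and MDH2, which act later in the cycle, differed by 0.21, 0.25 and 0.00. Another MDH2 probe set, below the filter, differed by -0.53 without overlap.

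**Figure D5:**
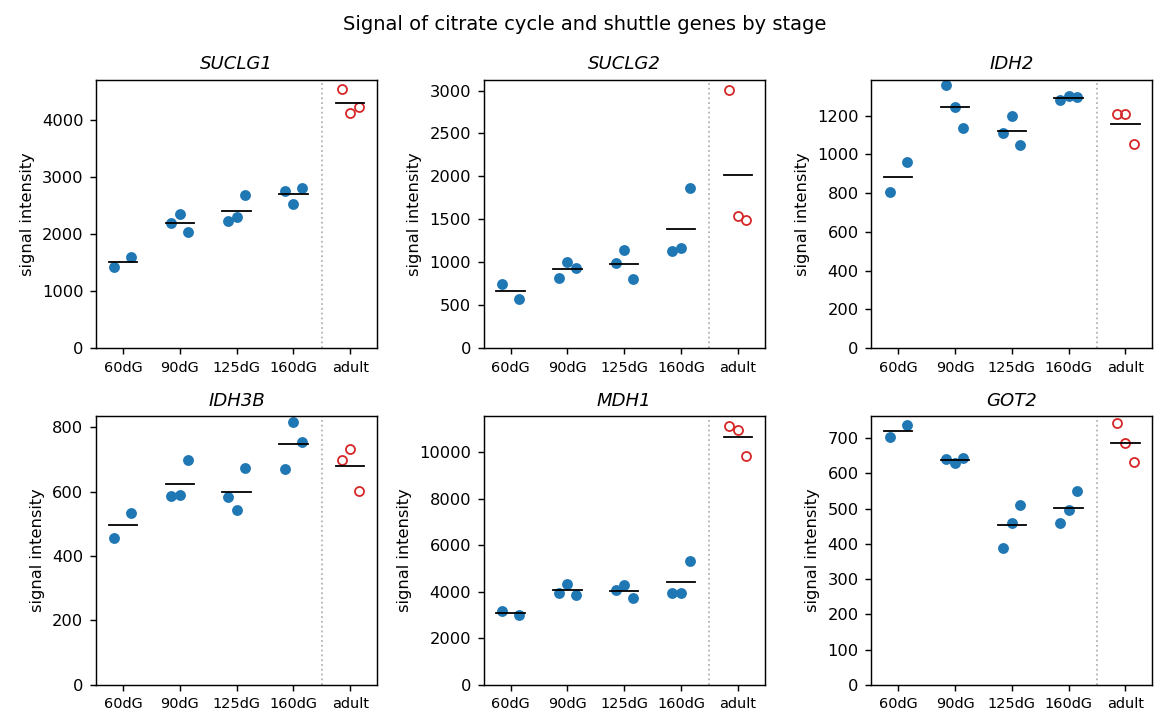
Signal intensity (linear scale from 0) of SUCLG1, SUCLG2, IDH2, IDH3B, MDH1 and GOT2 on each array by stage, with group means as bars; open points are adult arrays of another array type. SUCLG1, SUCLG2, IDH2, IDH3B and MDH1 are lowest at 60dG, while GOT2 is highest there among the fetal stages.

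The transaminases and malate dehydrogenases carry reducing equivalents between cytosol and mitochondrion. GOT2, the mitochondrial aspartate transaminase, had signals of 705 and 738 at 60dG, 642, 629 and 644 at 90dG, 388, 459 and 511 at 125dG, and 459, 497 and 551 at 160dG. The first 2 stages did not overlap with the last 2. GOT1, its cytosolic counterpart, gave 272 and 179 at 60dG, 497, 276 and 271 at 90dG, 365, 353 and 317 at 125dG, and 420, 362 and 305 at 160dG. Between 160dG and 60dG the difference was -0.51 ± 0.18 (SE; limma, adjusted p = 0.0784) for GOT2 and 0.66 ± 0.27 (SE; limma, adjusted p = 0.14) for GOT1. MDH1, the cytosolic malate dehydrogenase, differed by 0.50 ± 0.15 (SE; limma, adjusted p = 0.0511), and with quantile normalization by 0.72 (limma, adjusted p = 0.00665); it passed under 6 of its alternatives. ACO1, the cytosolic aconitase that also regulates iron, differed by 0.19 ± 0.23.

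Whether isozymes of 1 reaction moved unequally was tested by the slope of their log2 ratio over days of gestation. Of 14 listed pairs, 7 had both genes above the filter, and none passed after Benjamini-Hochberg adjustment over the 7 (exact permutation test, two-sided, 92400 arrangements); 1 had an unadjusted p under 0.05. That pair was GOT1 to GOT2, with a slope of 0.11 ± 0.035 (SE) log2 per 10 days (exact permutation p = 0.0122, adjusted p = 0.0855). Its ratio was 1.18 higher at 160dG than at 60dG, without overlap. For LDHB to LDHA the slope was 0.02 ± 0.018 (exact permutation p = 0.243) and for PCK2 to PCK1 it was 0.05 ± 0.04 (exact permutation p = 0.224). With quantile normalization the slope of LDHB to LDHA was 0.054 (exact permutation p = 0.0168, adjusted p = 0.0587). With no filter, PKLR to PKM and PFKP to PFKL had unadjusted p of 0.0142 and 0.0294 (exact permutation), and neither passed after adjustment. The GOT1 to GOT2 pair passed without 90dG replicate 1 (exact permutation, adjusted p = 0.0344) or 160dG replicate 3 (0.0364), and without 60dG replicate 2 its adjusted p was 0.404.

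Over the 4 stages, 8 of 34 members (23.5%) differed, where 18.2% of all tested genes did (limma moderated F). They were PCK1, PCK2, FBP1, KHK, SUCLG1, SUCLG2 (adjusted p = 0.0369), IDH3A (adjusted p = 0.0367) and GOT2 (adjusted p = 0.0399). The calls of IDH3A and GOT2 were both lost with no filter, with the GAPDH ratio as a covariate, and without the 90dG group. Both were also lost on leaving out either 60dG replicate, 90dG replicate 2 or 3, 125dG replicate 1 or 2, or 160dG replicate 1. With quantile normalization or the replicate block IDH3A was lost and GOT2 stayed. The call of SUCLG2 over the stages was lost with eBayes without its trend, with the replicate block and without the 90dG group. So it was on leaving out either 60dG replicate, 90dG replicate 2 or 3, 125dG replicate 1 or 160dG replicate 3. A linear trend was called for 4 members (11.8%), against 9.74% of all tested genes (4.83% higher, 4.91% lower), and all 4 rose. The slopes per 10 days were 0.17 ± 0.03 (SE) for PCK2, 0.16 ± 0.04 for KHK, 0.09 ± 0.02 for SUCLG2 and 0.07 ± 0.02 for SUCLG1 (limma, adjusted p from 0.0039 to 0.0174). FBP1 (limma, adjusted p = 0.0538) and PCK1 (limma, adjusted p = 0.125) did not pass; both passed without the 90dG group (limma, adjusted p = 0.00307 and 3.52e-04), where 7 members did, and with the GAPDH ratio as a covariate. Over the stages, 2 members were called on leaving out 60dG replicate 1, 4 on leaving out 60dG replicate 2, and 5 on leaving out 90dG replicate 2 or 3, 125dG replicate 1 or the 90dG group. PCK1 and PCK2 were among the called genes in every one of these fits. The trend of SUCLG1 was lost without 60dG replicate 1 and that of SUCLG2 without 60dG replicate 2 or 160dG replicate 3.

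Most of the gluconeogenic rise lay in the first interval. From 60dG to 90dG, 4 members (11.8%) rose, PCK1, PCK2, FBP1 and SUCLG1, where 9.11% of all tested genes were called, 5.53% higher and 3.58% lower. PCK1 rose by 1.87 and FBP1 by 1.76 on the log2 scale (limma, adjusted p = 0.00047 and 0.00475), close to their full differences between 60dG and 160dG. PCK2 rose by 1.49 (limma, adjusted p = 0.00333). Without 60dG replicate 1 the called members were PCK1 and PCK2, and without both 90dG arrays of raised GAPDH ratio, a setting chosen after seeing the data, PCK1 alone (1.62; limma, adjusted p = 0.0254). With the 1 remaining 90dG array FBP1 still differed by 1.90 and PCK2 by 1.31 (limma, adjusted p = 0.0524 and 0.0665). SUCLG1 (0.53; limma, adjusted p = 0.0394) kept its call under 9 of 22 alternatives. It was lost on leaving out any 1 of the 60dG and 90dG replicates, or 125dG replicate 1 or 2.

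From 90dG to 125dG, 1 member was called, where 5.17% of all tested genes were (2.56% higher, 2.61% lower): PCK1 fell by 0.96 (limma, adjusted p = 0.02). For PCK1, leaving out 90dG replicate 2 (limma, adjusted p = 0.0701) or 3 (0.0627), or 125dG replicate 1 (0.0549) or 3 (0.0842), ended that call, with differences from -1.002 to -0.802. The GAPDH ratio as a covariate did too, with a difference of -0.90 (limma, adjusted p = 0.0897). PCK2, which moved with PCK1 in the first interval, differed by 0.18 here. From 125dG to 160dG no member passed in limma, where 0.322% of all tested genes were called (0.0758% higher, 0.246% lower) and 3 members had an unadjusted p under 0.05. PCK1 was nearest (limma, adjusted p = 0.0631), and it passed without 160dG replicate 2. It also passed in the fit with averaged probe sets, although PCK1 has 1 probe set and its own values did not change.

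Markers of other cells and tissues also moved in these intervals. From 60dG to 90dG 7 of 9 tested proximal tubule markers rose, and from 90dG to 125dG none passed in limma (1 had an unadjusted p under 0.05). Of 5 liver and plasma protein markers 2 were tested. APOA1 rose by 1.15 in the first interval (limma, adjusted p = 0.0315) and fell by 1.23 in the second (limma, adjusted p = 0.0248). AFP differed by 0.69 in the first interval (limma, adjusted p = 0.344) and fell by 2.90 in the second (limma, adjusted p = 0.00401). Of those below the filter, ALB fell in the first interval, from signals of 205 and 313 to 106, 66.0 and 53.0. TTR differed by -0.97 there and FGB by 0.09. The sum of all 5 was 2023 to 3936 at 60dG, 3913 to 4364 at 90dG, 548 to 1356 at 125dG and 309 to 494 at 160dG, where PCK1 was again high. HBE1, the tested erythroid marker of 3 with a probe set, fell by 2.50 from 90dG to 125dG (limma, adjusted p = 0.00285). Of the nephron progenitor markers EYA1 fell by 0.91 there (limma, adjusted p = 0.0315), and both tested ones, EYA1 and MYCN, were lower at 160dG than at 60dG. The part of these markers in the course of the gluconeogenic genes was not tested. Adjoining intervals share arrays, so their differences are not independent.

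The adult kidneys were set beside the 160dG kidneys without a test, since group and array type cannot be told apart. Over all tested genes the median difference was -0.13 on the log2 scale, and 17.7% differed at least 2-fold without overlap, 4.64% higher and 13.0% lower in the adult. Of the 34 members, 4 were higher by this rule, PCK1, PCK2, FBP1 and MDH1, and 2 were lower, HK1 and PKM. PCK2 had adult signals of 2239, 2537 and 2167, which is 1.76 above the 160dG mean on the log2 scale. FBP1 had 2970, 2632 and 2524 (1.30 above) and PCK1 1024, 966 and 1017 (1.04 above). For these 3 genes the lowest adult array exceeded every fetal array.

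The summed proximal tubule markers were 22345, 21477 and 21500 in the adults, also above every fetal array. PC, the pyruvate carboxylase that starts gluconeogenesis from pyruvate, was below the filter in the fetus, with means of 154 ± 56.3 (SD, n = 2) at 60dG and 216 ± 85.0 (SD, n = 3) at 160dG. It reached 586, 653 and 398 in the adults. KHK gave 893, 979 and 518 in the adults and overlapped with 160dG. MDH1 had 11139, 10956 and 9826 in the adults against 3960, 3934 and 5331 at 160dG.

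HK1 gave 234, 213 and 91.0 in the adults and PKM 273, 274 and 163, differences of -1.25 and -1.59 from 160dG. A dim 2nd PKM probe set differed by 0.55. The lowest adult value of both genes came from replicate 3, the array with muscle markers. It had the highest adult signals of PFKM (1684) and LDHA (1101), and the lowest of ALDOA (2991.5) and PGAM1 (937.7). Without that array HK1 no longer met the rule and IDH3G did. Without 160dG replicate 2 neither PCK1 nor FBP1 met it. The reversible glycolytic steps differed between adult and 160dG by a median of 0.21, and probe sets of ENO1 disagreed, with 0.01, -2.33 and 0.97.

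Of 35 further genes of these pathways, 25 have a probe set and 20 were tested; between 60dG and 160dG 2 of the 20 rose and none fell, a share near the 11.6% called among all tested genes. ENO3, the muscle enolase, had mean signals of 115 at 60dG, 348 at 90dG, 236 at 125dG and 238 at 160dG, and rose by 0.99 ± 0.26 (SE; limma, adjusted p = 0.0239). DLD, the dihydrolipoamide dehydrogenase shared by the pyruvate and 2-oxoglutarate complexes, went from 790 at 60dG to 518, 974 and 1423, a rise of 0.84 ± 0.26 (SE; limma, adjusted p = 0.0479). DLD also followed the trend (limma, adjusted p = 0.0331), and no other gene of this list did. GAPDH, the glycolytic dehydrogenase often used as a reference, gave 5753 ± 608 (SD, n = 2) at 60dG and 4175 ± 879 (SD, n = 3) at 160dG. The difference was -0.48 ± 0.20 (SE, limma, adjusted p = 0.149), and the 160dG arrays lay below both 60dG arrays.

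The remaining members below the filter were ENO2, IDH1 and ME1. ENO2, the neuronal enolase, and IDH1, the cytosolic isocitrate dehydrogenase, had fetal group means from 79.0 to 151. ME1, the cytosolic malic enzyme, gave 95.6 in 60dG replicate 1 and 386 in replicate 2, the array with adrenal markers, and 82.4 to 185 on the other fetal arrays. No gene of the 3 was called when the filter was dropped.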

How the data were processed

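Biotin-labelled cRNA from whole kidney total RNA was hybridised, per the labels' protocols. The deposited values are probe set intensity on a linear scale; per the submitters' processing notes the authors used GCOS, whose version, signal method and scaling the sources used here do not state. They were used without rescaling, as log2(signal + 16). Of 16186 probe sets, 43 are controls, 14068 have 1 gene symbol, 735 several and 1340 others none. All 11 fetal arrays entered a limma 3.58.1 fit (R 4.3.3; lmFit, then eBayes with its trend option) over 5278 genes, and a call is a Benjamini-Hochberg adjusted p under 0.05 over all of them. Intervals are 95% intervals of that fit. P-values measure the spread between these samples. Fit and permutation test were tested on simulated data. The members and lists were chosen with earlier results of these data known; all called members are named, and further pathway genes only where called, with GAPDH. The number of arrays limits the precision. Alternatives were pseudocounts of 1 and 64, no filter or one at the 0.75 quantile, quantile normalization, array weights, eBayes without its trend, a replicate block, averaged probe sets, the GAPDH 3' to 5' ratio as a covariate, and leaving out the 90dG group or each array. No sequences or coordinates were used here.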

Additional observations from a re-analysis of the deposited data

How the results depend on the processing

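The counts of members called, of isozyme pairs and of members that differed in the adult stayed within 1.5 times of the values given under the settings not named here. Without the 90dG group, 7 members were called for the trend and 5 over the stages. The single call between 90dG and 125dG became 0 with the GAPDH ratio as a covariate and among genes above the 0.75 quantile, where PCK1 is not tested. Without 90dG replicates 2 and 3, a setting chosen after seeing the data, it also became 0, and the count between 60dG and 90dG became 1. With averaged probe sets 1 member was called between 125dG and 160dG. Leaving out 1 array gave 3 to 6 members for the trend, 2 to 8 over the stages, 5 to 7 for 160dG against 60dG, 2 to 5 for 90dG against 60dG, 0 to 1 for each later interval, 0 to 1 isozyme pairs and 4 to 6 members for the adult. A stage left with 1 array is assumed to vary like the others. Same-numbered fetal samples shared little deviation from their stage means (2 of 15 correlations above 0.1, range -0.114 to 0.179). Differently numbered samples were not compared for reference. With that and 2 or 3 arrays per stage, these correlations cannot tell whether the numbers mark a pairing. With the replicate block the counts were 4 for the trend, 6 over the stages, 6 for 160dG against 60dG and 3 for 90dG against 60dG. They were 1 and 0 for the later intervals and 0 for isozyme pairs. Among values of single members under the alternatives, 1520 stayed on their side of the threshold, 37 lost a call, 25 gained one and 0 reversed. This tally covers all tested members for the trend and for 160dG against 60dG, and the other intervals only for members called there. It leaves out the comparison over the stages.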
